A study of Mus musculus with 16 samples.

Results

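The proteasome is the large protease that breaks down proteins tagged with ubiquitin. Its subunit genes were followed in whole ears of mice from a study of psoriasis-like inflammation, in which some ears were given only a vehicle. The members are all gene symbols on the array that begin with Psm, go on with a letter from a to g and end in a number, each represented by its brightest transcript cluster (the array's unit for 1 gene) on average over the 16 arrays. This gave 47 genes of 30943, and each had a single cluster. They comprise 7 alpha subunits of the 20S core, Psma1 to Psma4 and Psma6 to Psma8, while Psma5 is not among them. Further members are 8 beta subunits (Psmb1 to Psmb7 of the standard core and Psmb11 of the thymus) and the 3 immunoproteasome subunits Psmb8, Psmb9 and Psmb10. The 19S cap has 6 ATPases, 11 other subunits and 3 assembly chaperones. The rest are 4 activators, 1 inhibitor and 4 assembly chaperones of the core.

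Total RNA of whole ear was hybridised to 16 Affymetrix Mouse Gene ST 2.1 arrays, 4 for each of 4 groups. The groups were miR-146a-/- ears given imiquimod (IMQ), wild-type ears given IMQ, miR-146a-/- ears given a vehicle and wild-type ears given a vehicle. All mice had the C57BL/6J background and were 8 to 11 weeks old. IMQ, a Toll-like receptor 7 agonist, was given to the right ear in Aldara cream, which holds 5% of it, at 31.25 mg of cream a day on 3 consecutive days, and the ears were collected on day 4. The knockout mice lack miR-146a, a microRNA known to restrain Toll-like receptor signalling; the labels name no tissue or inducible driver for the deletion. The composition of the vehicle is not given in the sources used here. Arrays carry the numbers 1 to 4 within each group. Nothing in the labels says that arrays of a group came from separate mice, and the p-values therefore speak of the spread among these arrays, which may be technical.

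The barrel-shaped 20S core is a stack of alpha rings, which gate the entrance, and beta rings, which hold the catalytic sites. The 19S cap binds ubiquitin chains, removes them, and unfolds the substrate with a ring of ATPases. Interferons, above all interferon gamma, are known to induce the immunoproteasome, in which Psmb8 replaces Psmb5, Psmb9 replaces Psmb6 and Psmb10 replaces Psmb7, and which favours peptides for presentation by major histocompatibility complex (MHC) class I.

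All values are log2 array signals, so a difference of 1 is a doubling. A gene was called where limma gave a Benjamini-Hochberg adjusted p under 0.05 over all 30943 genes. The array medians lay between 3.21 and 3.28, and arrays of a group correlated at 0.96 to 0.976 over all genes. The keratinocyte markers averaged between 10.69 and 10.88 in the 4 groups and were bright on arrays labelled as ear. The cluster with the symbol Mir146 read 1.73 to 1.93 in knockout IMQ ears, 1.78 to 2.07 in wild-type IMQ ears, 1.78 to 1.83 in knockout vehicle ears and 1.62 to 2.16 in wild-type vehicle ears. These values lie near the floor of the array, overlap between genotypes and therefore do not check the knockout label.

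Of the 47 members, 42 were above the array median on all 16 arrays. Psmb3 and Psmb9 were above it on 15 arrays, and Psmg4, a core assembly chaperone, on 2. Psma8, the testis alpha subunit, and Psmb11, the beta subunit of the thymus, were above it on 0 arrays. All 5 of these are kept in every count of 47 below.

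The first comparison asks what IMQ changed in ears that lack miR-146a. In knockout ears, IMQ raised 18 of the 47 proteasome genes and lowered 0. The members called higher are 38.3% of the list, while 8.07% of all genes tested were called higher and 6.91% lower. All genes include many dim ones: when only the 16400 genes that exceeded the array median on 4 or more arrays were tested, 17.1% were called higher, as were 23 of the 44 members among them. The median change of the members was 0.30 and that of all genes -0.02, and 44 members had a change above 0, as did 46.8% of all genes. The changes were small, between -0.10 and 0.71 on the log2 scale. In 20 members all knockout IMQ arrays read above all knockout vehicle arrays, as did 8.55% of all genes, and in 0 members the order was the opposite, as in 7.43% of all genes. Before adjustment, 28 members passed p under 0.05 as higher and 0 as lower, with 12.7% and 12.3% of all genes. Fewer cells of a type and less RNA per cell cannot be told apart in RNA of whole ear.

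**Figure D1:**
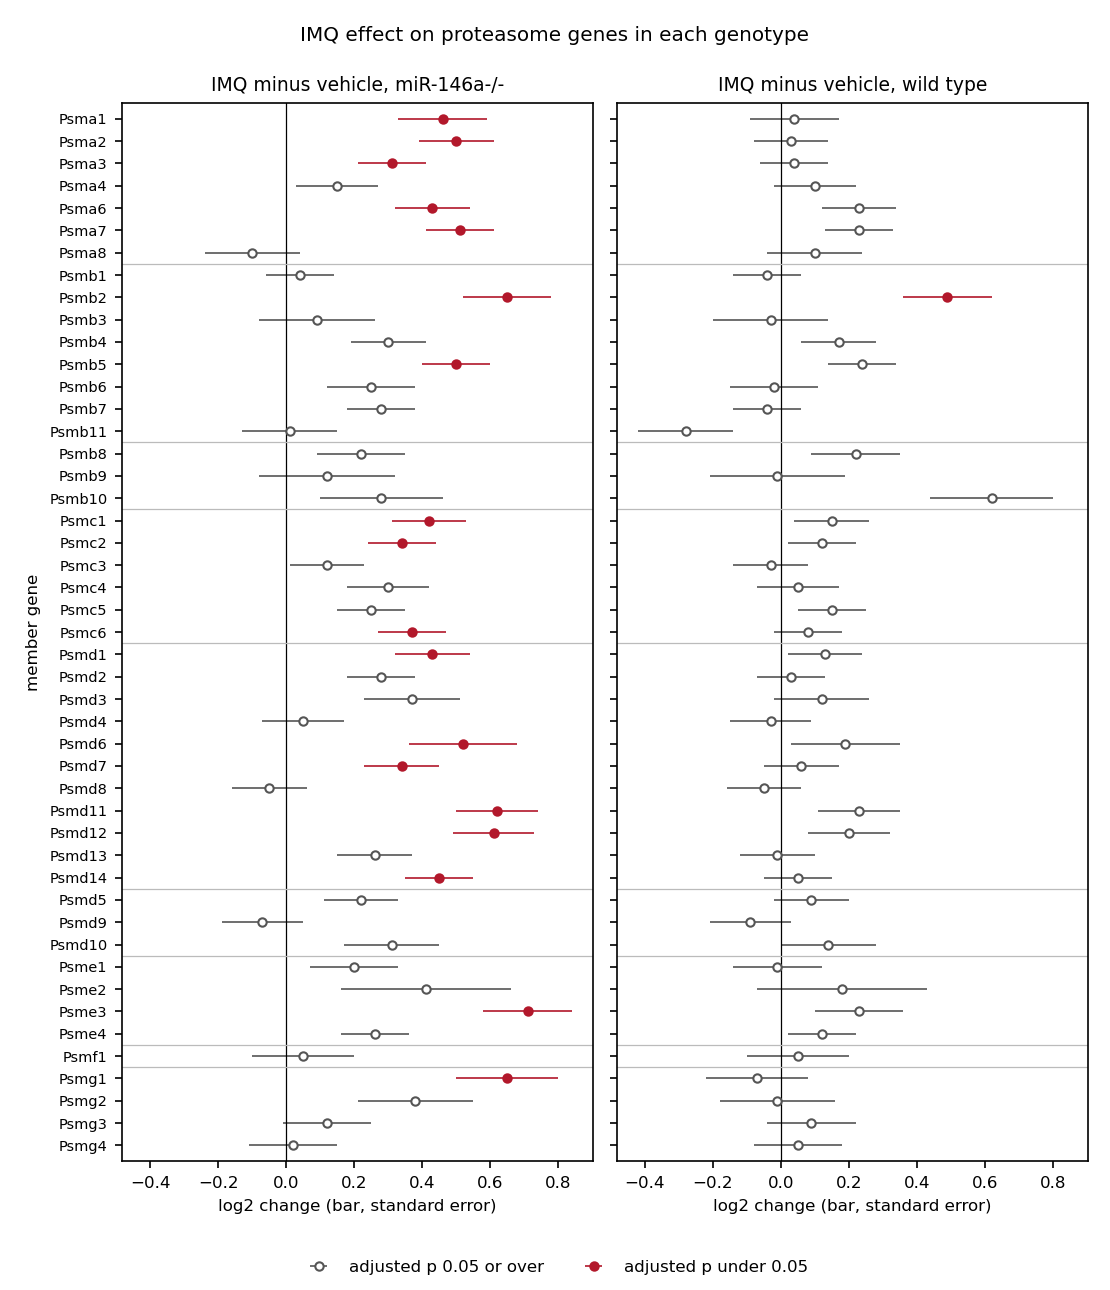
Log2 change with IMQ of each of the 47 proteasome genes (x axis, with its standard error), in knockout ears on the left and wild-type ears on the right, with genes in rows by subunit group and called genes as filled red points. In knockout ears 18 genes were called higher, and in wild-type ears only Psmb2.

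The 18 calls were not equally stable. Without each of the 16 arrays in turn, 11 of the 18 genes kept their call every time: Psma2, Psma6, Psma7, Psmb2, Psmb5, Psmd1, Psmd11, Psmd12, Psmd14, Psme3 and Psmg1. The other 7 (Psma1, Psma3, Psmc1, Psmc2, Psmc6, Psmd6 and Psmd7) lost it without at least 1 array. Without knockout IMQ array 3, 12 members and 6.72% of all genes were called higher, and without knockout vehicle array 4, 12 and 6.3%. A fit on the 8 knockout arrays alone kept 11 of the 18 calls, with 6.1% of all genes called higher. Quantile normalization kept 12, with 7.37% of all genes. A fit with the means of muscle and adipocyte markers as covariates kept 0, with 0.32% of all genes called higher. The covariates also widened the standard errors of the 18 genes, to 0.21 to 0.35 from 0.10 to 0.16.

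Of the 7 alpha genes among the members, which lack Psma5, 5 rose in knockout ears, namely Psma1, Psma2, Psma3, Psma6 and Psma7. Psma7 rose by 0.51 ± 0.10 (SE, adjusted p = 0.00162) and Psma2 by 0.50 ± 0.11 (adjusted p = 0.00501), and the smallest of the called changes was 0.31 in Psma3 (adjusted p = 0.0431). Psma4 read 0.15 higher (adjusted p = 0.507) and Psma8 had a change of -0.10 (adjusted p = 0.74). The knockout IMQ and knockout vehicle arrays did not overlap in Psma2, Psma3, Psma6 and Psma7, and they overlapped in Psma1.

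Among the 8 beta subunits outside the immunoproteasome, Psmb2 and Psmb5 rose in knockout ears. Psmb5 carries the chymotrypsin-like site of the standard core. Psmb2, which has no catalytic site of its own, read 6.78, 6.69, 7.01 and 7.02 in knockout IMQ ears, against 6.41, 6.32, 6.28 and 5.88 in knockout vehicle ears. The groups did not overlap, and knockout vehicle array 4 was the lowest of all 16. The change in Psmb2 was 0.65 ± 0.13 (SE, 1.57-fold, adjusted p = 0.00172).

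Psmb5 read 7.30, 7.15, 7.21 and 7.26 in knockout IMQ ears, against 6.90, 6.60, 6.72 and 6.69 in knockout vehicle ears. These groups did not overlap either, and the change was 0.50 ± 0.10 (SE, adjusted p = 0.00136). The other 6 genes were not called, and their changes ran from 0.01 in Psmb11 to 0.30 in Psmb4 (adjusted p = 0.0944). Psmb7, the trypsin-like subunit, came closest to the threshold at 0.28 ± 0.10 (adjusted p = 0.0571), with knockout IMQ arrays at 7.72 to 7.83 and knockout vehicle arrays at 7.39 to 7.55.

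In the 19S cap, 3 of 6 ATPase genes rose with IMQ in knockout ears. They were Psmc1 at 0.42 (adjusted p = 0.0148), Psmc6 at 0.37 (adjusted p = 0.0153) and Psmc2 at 0.34 (adjusted p = 0.0325). The changes of Psmc3, Psmc4 and Psmc5 were 0.12, 0.30 and 0.25 and did not pass the test. Leaving out 1 array ended the call of each of the 3 genes in at least 1 case.

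Of the other cap subunits, 6 of 11 rose in knockout ears. Psmd11 and Psmd12 belong to the lid of the cap, and Psmd14 is the lid's deubiquitinase, which cuts ubiquitin chains off the substrate. Psmd11 rose by 0.62 ± 0.12 (SE, adjusted p = 0.00118) and Psmd12 by 0.61 ± 0.12 (adjusted p = 0.001). Psmd6 rose by 0.52 (adjusted p = 0.0301), Psmd14 by 0.45 (adjusted p = 0.00437), Psmd1, the large scaffold subunit, by 0.43 (adjusted p = 0.012), and Psmd7 by 0.34 (adjusted p = 0.0433). Psmd6 is the one of these 6 genes in which the groups overlapped.

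Psmd2, Psmd3, Psmd4, Psmd8 and Psmd13 were not called. The ubiquitin receptor Psmd4 changed by 0.05 ± 0.12 (SE, 95% interval -0.20 to 0.30), and Psmd8 was at -0.05 (adjusted p = 0.837). The cap's assembly chaperones were not called either, with 0.22 in Psmd5, -0.07 in Psmd9 and 0.31 in Psmd10.

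Psme3, the nuclear activator also named PA28 gamma, had the largest change of the 47 in knockout ears. It read 4.89, 5.05, 4.94 and 4.64 in knockout IMQ ears, against 4.43, 4.05, 4.24 and 3.98 in knockout vehicle ears. No array of one group reached the range of the other. The change was 0.71 ± 0.13 (SE, 1.63-fold, adjusted p = 0.000741).

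The other 3 activators were not called. Psme1 and Psme2 form the interferon-inducible activator PA28, and they changed by 0.20 (adjusted p = 0.372) and 0.41 (adjusted p = 0.338). Psme2 spread widely, from 4.25 to 5.52 among the knockout IMQ arrays. Psme4, the activator PA200, changed by 0.26 (adjusted p = 0.0904), and Psmf1, the inhibitor PI31, by 0.05 (adjusted p = 0.91).

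Psmg1, a chaperone that helps to assemble the alpha ring, read 5.55, 5.68, 5.61 and 5.28 in knockout IMQ ears, against 4.68, 5.11, 5.19 and 4.54 in knockout vehicle ears. The groups did not overlap, and knockout vehicle arrays 1 and 4 were lowest. The change was 0.65 ± 0.15 (SE, 1.57-fold, adjusted p = 0.00532). Its partner Psmg2 changed by 0.38 (adjusted p = 0.183), Psmg3 by 0.12 and Psmg4 by 0.02, none of them called.

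**Figure D2:**
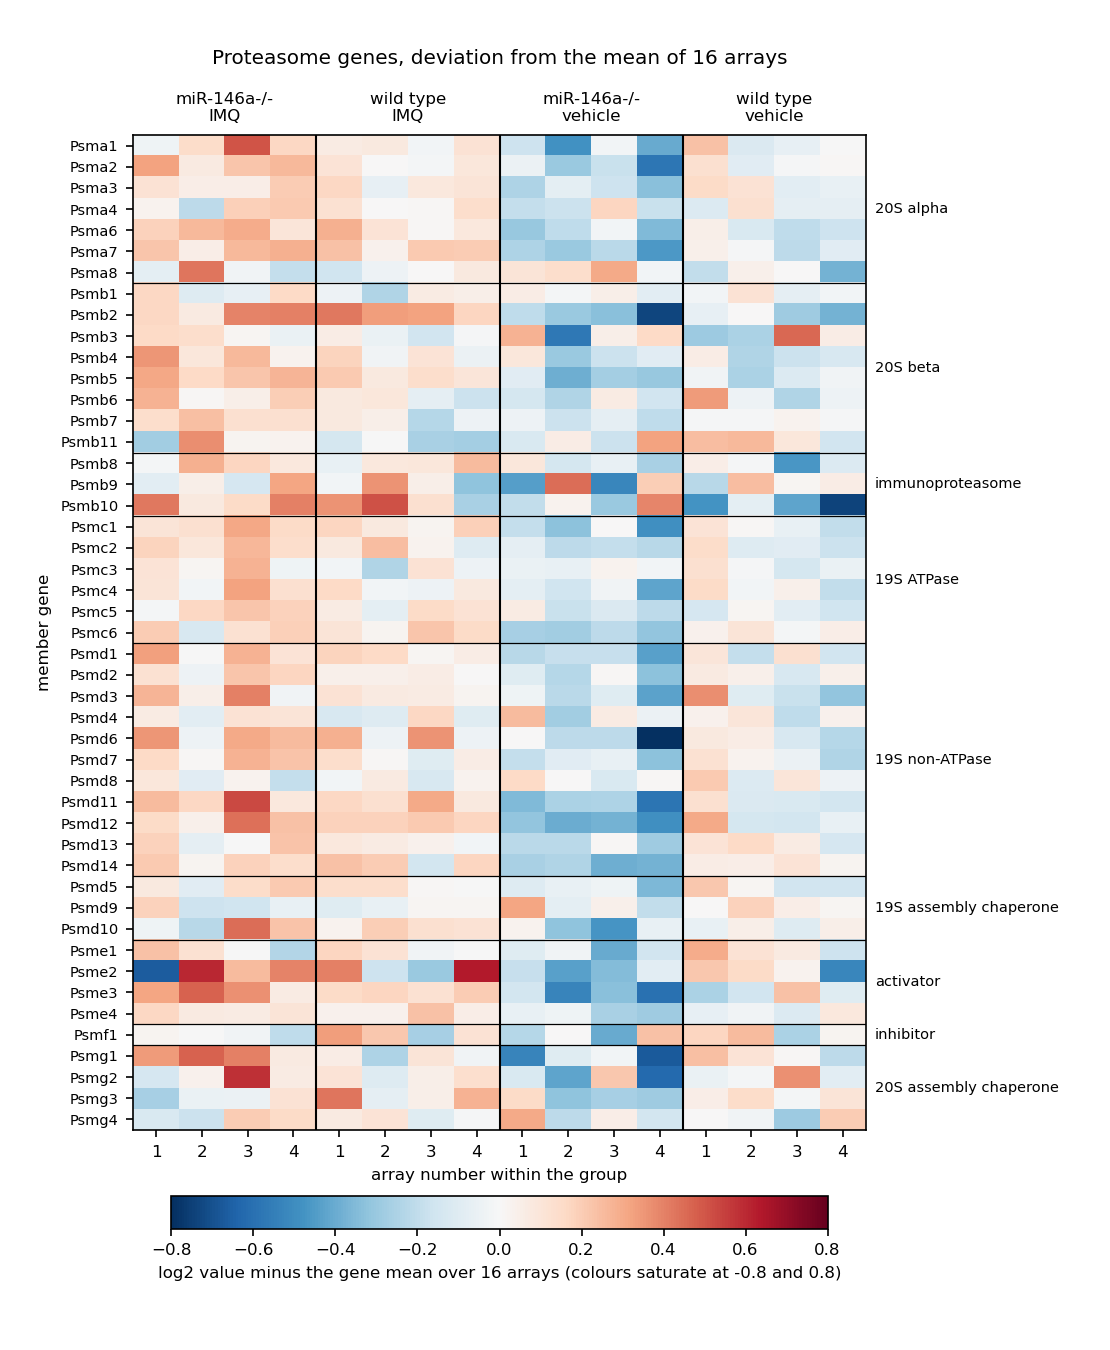
Log2 signal of each of the 47 proteasome genes minus that gene's mean over all 16 arrays (colour scale), with arrays in columns by group and genes in rows by subunit group. The median over the members ran from 0.05 to 0.22 on knockout IMQ arrays, 0.05 to 0.11 on wild-type IMQ arrays, -0.28 to -0.10 on knockout vehicle arrays and -0.08 to 0.06 on wild-type vehicle arrays.

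The 3 immunoproteasome genes were not called with IMQ in knockout ears. Psmb8, which replaces the chymotrypsin-like subunit, read 5.50, 5.80, 5.69 and 5.60 in knockout IMQ ears, 5.46, 5.60, 5.61 and 5.77 in wild-type IMQ ears, 5.61, 5.38, 5.46 and 5.26 in knockout vehicle ears and 5.57, 5.51, 5.05 and 5.41 in wild-type vehicle ears. All 4 groups overlapped. The change with IMQ was 0.22 ± 0.13 in knockout ears (SE, 95% interval -0.04 to 0.48, adjusted p = 0.305). In wild-type ears it was also 0.22 ± 0.13 (95% interval -0.04 to 0.49, adjusted p = 0.453).

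Psmb9 was the dimmest of the 3 and lay close to the array median. It read 3.62, 3.75, 3.57 and 4.02 in knockout IMQ ears, 3.68, 4.06, 3.75 and 3.38 in wild-type IMQ ears, 3.26, 4.15, 3.18 and 3.90 in knockout vehicle ears and 3.48, 3.95, 3.72 and 3.76 in wild-type vehicle ears. The knockout vehicle arrays alone spanned the whole range of the 16. Its change was 0.12 ± 0.20 in knockout ears (SE, 95% interval -0.29 to 0.53, adjusted p = 0.791) and -0.01 ± 0.20 in wild-type ears (95% interval -0.42 to 0.40, adjusted p = 0.991).

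Psmb10, which replaces the trypsin-like subunit, read 5.59, 5.25, 5.32 and 5.57 in knockout IMQ ears, 5.53, 5.68, 5.30 and 4.91 in wild-type IMQ ears, 4.97, 5.20, 4.87 and 5.56 in knockout vehicle ears and 4.69, 5.09, 4.75 and 4.43 in wild-type vehicle ears. Of the wild-type IMQ arrays, array 4 fell inside the wild-type vehicle range and the other 3 lay above it. Knockout vehicle array 4 stood with the IMQ arrays. The change was 0.62 ± 0.18 in wild-type ears (SE, 95% interval 0.24 to 0.99, unadjusted p = 0.00302, adjusted p = 0.0697). In knockout ears it was 0.28 ± 0.18 (95% interval -0.09 to 0.66, adjusted p = 0.374). The difference between those effects was -0.33 ± 0.25 (adjusted p = 0.658). Psmb10 in wild-type ears did pass the threshold under other settings, with an adjusted p of 0.0435 after a filter on dim genes and 0.0473 after centring each array on its median.

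**Figure D3:**
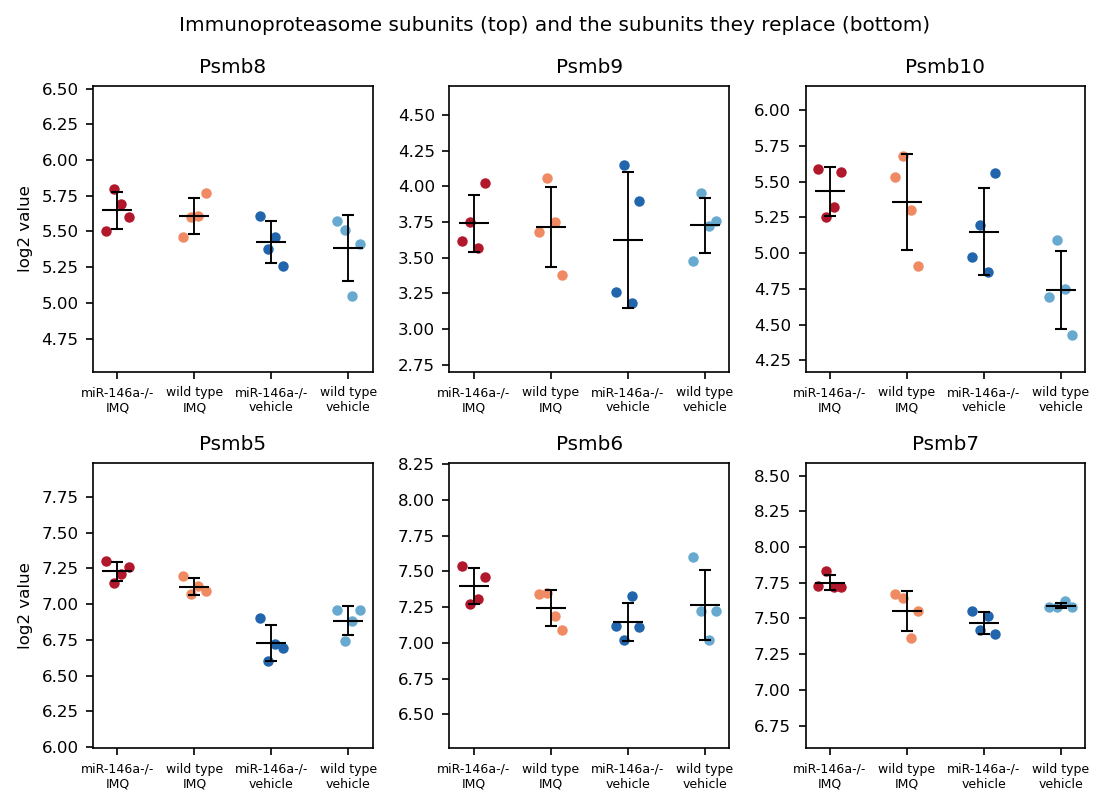
Log2 signal (y axis) of the immunoproteasome subunits Psmb8, Psmb9 and Psmb10 in the top row and of the constitutive subunits they replace, Psmb5, Psmb6 and Psmb7, in the bottom row, by group. Points are arrays, bars the mean and error bars the SD (n = 4 arrays each); Psmb5 on knockout IMQ arrays lies at 7.15 to 7.30 and on knockout vehicle arrays at 6.60 to 6.90, whereas the Psmb8 groups overlap.

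Each immunoproteasome gene was also set against the subunit it replaces, on the same array. The difference Psmb8 minus Psmb5 changed with IMQ by -0.28 in knockout ears and -0.01 in wild-type ears. Psmb9 minus Psmb6 changed by -0.13 in knockout ears and 0.01 in wild-type ears. Psmb10 minus Psmb7 changed by 0 in knockout ears and 0.65 in wild-type ears. These 6 values are descriptions without a test, and the arrays overlapped between IMQ and vehicle in each of them.

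Promoter sequences are shown for the immunoproteasome genes, which interferons are known to induce. Those of Psmb5, Psme3 and Psmd12 are shown as genes that rose in knockout ears. RefSeq windows on GRCm38.p6, from 250 bases before to 50 after the gene start, were found for 39 of the 47 members. They are printed from 5′ to 3′ on the gene's strand. Capitals mark matches, on either strand, to any of 5 motifs: TTCNNNGAA (interferon gamma activated site), a pair of GAAA with 2 bases between (core of the interferon stimulated response element), GGG and CC with 5 bases between (NF-kB), TGACNNNGC (core of the antioxidant response element) and CCAAT (NF-Y). Matches may overlap.
Psmb8, chr17:34197945-34198244, plus strand: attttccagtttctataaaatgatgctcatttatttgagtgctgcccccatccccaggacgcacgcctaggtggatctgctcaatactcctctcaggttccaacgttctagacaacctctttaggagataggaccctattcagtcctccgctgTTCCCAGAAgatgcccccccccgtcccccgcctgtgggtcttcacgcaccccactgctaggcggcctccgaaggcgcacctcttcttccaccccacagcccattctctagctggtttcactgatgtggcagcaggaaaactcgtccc
Psmb9, chr17:34187281-34187580, minus strand: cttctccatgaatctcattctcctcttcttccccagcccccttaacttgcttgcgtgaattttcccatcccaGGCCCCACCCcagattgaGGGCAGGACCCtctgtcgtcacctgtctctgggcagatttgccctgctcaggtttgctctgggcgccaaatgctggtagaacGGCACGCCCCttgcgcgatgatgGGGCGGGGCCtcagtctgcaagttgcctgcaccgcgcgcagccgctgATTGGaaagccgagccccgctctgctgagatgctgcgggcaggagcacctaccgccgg
Psmb10, chr8:105938343-105938642, minus strand: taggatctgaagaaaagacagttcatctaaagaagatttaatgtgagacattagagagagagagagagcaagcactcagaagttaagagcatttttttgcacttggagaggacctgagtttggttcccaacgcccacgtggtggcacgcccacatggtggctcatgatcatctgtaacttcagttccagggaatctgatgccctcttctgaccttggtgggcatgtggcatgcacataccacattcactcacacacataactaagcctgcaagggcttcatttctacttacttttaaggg
Psmb5, chr14:54617946-54618245, minus strand: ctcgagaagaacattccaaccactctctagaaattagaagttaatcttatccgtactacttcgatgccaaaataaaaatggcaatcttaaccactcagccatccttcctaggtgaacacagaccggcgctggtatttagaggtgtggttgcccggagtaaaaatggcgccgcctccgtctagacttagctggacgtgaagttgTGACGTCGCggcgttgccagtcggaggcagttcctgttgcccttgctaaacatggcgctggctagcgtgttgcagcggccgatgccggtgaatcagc
Psme3, chr11:101315963-101316262, plus strand: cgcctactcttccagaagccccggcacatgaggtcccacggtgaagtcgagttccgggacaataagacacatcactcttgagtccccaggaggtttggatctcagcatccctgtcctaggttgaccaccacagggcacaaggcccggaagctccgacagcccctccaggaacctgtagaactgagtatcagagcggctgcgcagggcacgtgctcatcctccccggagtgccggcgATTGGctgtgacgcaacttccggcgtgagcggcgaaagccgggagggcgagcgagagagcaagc
Psmd12, chr11:107479278-107479577, plus strand: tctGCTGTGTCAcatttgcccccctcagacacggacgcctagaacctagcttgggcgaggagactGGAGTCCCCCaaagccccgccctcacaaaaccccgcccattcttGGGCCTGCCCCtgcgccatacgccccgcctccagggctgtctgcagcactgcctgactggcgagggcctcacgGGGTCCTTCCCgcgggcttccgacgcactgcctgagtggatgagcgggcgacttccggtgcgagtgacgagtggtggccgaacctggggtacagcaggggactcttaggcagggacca
The Psmb8 window has a match to the interferon gamma activated site that begins 97 bases before the start, and the Psmb5 window has an antioxidant response element core that begins 47 bases before it. The Psmb9 window has 5 NF-kB matches, of which those beginning 160 and 159 bases before the start overlap, and 1 CCAAT match. In Psme3 there is 1 CCAAT match, and in Psmd12 there are 6 NF-kB matches and 1 antioxidant response element core. The Psmb10 window holds none of the 5 strings of letters.

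Over the 42 windows of the members (some genes have several), 3 held TTCNNNGAA (7.14%, against 8.30% of 32851 promoter windows of all genes). The interferon stimulated response element core was in 5 of 42 (11.9%, against 3.44%), all of them in genes that were not called in knockout ears (5 of 23 such genes by their first window, 0 of the 16 called ones). The NF-kB motif was in 22 (52.4%, against 50.8%). TGACNNNGC was in 6 (14.3%, against 12.4%) and CCAAT in 14 (33.3%, against 37.4%). By first window, CCAAT was in 9 of 16 genes called in knockout ears (56.2%) and 5 of 23 others (21.7%). These matches describe letters in a window and not sites in use.

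The second comparison asks the same of ears with miR-146a. In wild-type ears IMQ raised 1 of 47 members, Psmb2, and lowered 0. That share is 2.13%, and 1.95% of all genes were called higher and 1.69% lower, so the count of members lies near the background. The median change of the members was 0.08, the median of all genes was -0.02, and 33 members had a change above 0, as did 46.6% of all genes. All wild-type IMQ arrays read above all wild-type vehicle arrays in Psmb2 and Psmb5, and 5.52% of all genes had such a gap; 0 members had the opposite gap, which 5.17% of all genes had. At an unadjusted p under 0.05, 5 members were higher and 0 lower, with 7.15% and 7.18% of all genes.

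Psmb2 read 7.04, 6.95, 6.94 and 6.79 in wild-type IMQ ears, against 6.55, 6.62, 6.33 and 6.24 in wild-type vehicle ears. The groups were separate, and the change was 0.49 ± 0.13 (SE, 1.41-fold, adjusted p = 0.0411). This call was a near one: its adjusted p was 0.0516 with the replicate number as a block, and 8 of the 16 fits that each left out 1 array did not call it (adjusted p between 0.0212 and 0.141). Psmb5 changed by 0.24 (adjusted p = 0.246), and the 5 called alpha subunits of knockout ears had wild-type changes from 0.03 in Psma2 to 0.23 in Psma6 and Psma7. Psme3 changed by 0.23 (adjusted p = 0.446) and Psmg1 by -0.07 (adjusted p = 0.909).

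The third comparison tested directly whether the effect of IMQ differed between the genotypes. No member was called, while 0.53% of all genes had a larger effect in knockout ears and 0.721% a smaller one at the threshold. Before adjustment, 8 members had a larger effect in knockout ears at p under 0.05 and 0 a smaller one, with 6.74% and 6.40% of all genes. In 42 of 47 members the change in knockout ears was the larger, as in 51.3% of all genes, and the median difference was 0.23. With the muscle and adipocyte marker means as covariates that median was 0.06, and 0 of all genes were called in this comparison. No single gene among them is therefore shown to respond differently in the 2 genotypes.

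Psmg1 had the lowest p of this comparison. It read 5.27, 4.96, 5.31 and 5.18 in wild-type IMQ ears, against 5.45, 5.32, 5.22 and 5.00 in wild-type vehicle ears. These groups overlapped, whereas the knockout groups did not. The difference of the effects was 0.72 ± 0.21 (SE, 95% interval 0.27 to 1.16, unadjusted p = 0.00337, adjusted p = 0.109), and it was called in 1 of 16 fits that left out 1 array, without knockout vehicle array 3 (adjusted p = 0.044).

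Psma2 came second in this comparison. It read 7.87, 7.62, 7.77 and 7.81 in knockout IMQ ears, 7.66, 7.55, 7.53 and 7.64 in wild-type IMQ ears, 7.50, 7.25, 7.37 and 6.97 in knockout vehicle ears and 7.68, 7.46, 7.54 and 7.56 in wild-type vehicle ears. Knockout vehicle arrays 2, 3 and 4 lay below all others, and array 1 lay within the wild-type vehicle range. The difference of the effects was 0.46 ± 0.16 (SE, 95% interval 0.12 to 0.80, adjusted p = 0.191).

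The comparison of the genotypes within vehicle ears called 0 of 47 members, and 0.107% of all genes were called higher and 0.349% lower in knockout ears. The members lay lower in knockout vehicle ears on balance, with 40 changes below 0 (51.3% of all genes had one above 0), 12 at an unadjusted p under 0.05 (11 lower and Psmb10 higher, with 6.54% and 5.62% of all genes), and a median of -0.15. In 6 members all knockout vehicle arrays were below all wild-type vehicle arrays, as in 3.57% of all genes, and 0 members had the opposite gap, which 2.42% of all genes had. This comparison and the knockout effect of IMQ share the 4 knockout vehicle arrays, so low values there enter both.

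Psmd14 had the lowest p among them. It read 6.26, 6.28, 6.13 and 6.14 in knockout vehicle ears, against 6.58, 6.57, 6.63 and 6.54 in wild-type vehicle ears. The groups were clearly apart, with a difference of -0.38 ± 0.10 (SE, 0.77-fold, unadjusted p = 0.0017, adjusted p = 0.109). In knockout IMQ ears it was 6.73, 6.54, 6.70 and 6.66, and in wild-type IMQ ears 6.75, 6.72, 6.37 and 6.69.

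Psmd12 read 6.97, 6.89, 6.91 and 6.80 in knockout vehicle ears, against 7.59, 7.15, 7.14 and 7.23 in wild-type vehicle ears. No array overlapped, and the difference was -0.38 ± 0.12 (SE, unadjusted p = 0.00359, adjusted p = 0.15). With IMQ it read 7.44, 7.33, 7.73 and 7.52 in knockout ears and 7.47, 7.47, 7.50 and 7.46 in wild-type ears.

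In IMQ ears the genotypes were compared likewise, and 0 of 47 members were called; 0.0194% of all genes were called higher and 0.1% lower in knockout ears. The member median was 0.08, and 37 members had a difference above 0, against 52.5% of all genes. Psmg1 was 0.35 ± 0.15 higher (SE, 95% interval 0.03 to 0.67, adjusted p = 0.542), the single member that passed 0.05 before adjustment, with limma's p at 0.0319; 3.66% of all genes did so as higher and 4.59% as lower. Psmb7 read 7.73, 7.83, 7.72 and 7.72 in knockout IMQ ears, against 7.67, 7.64, 7.36 and 7.55 in wild-type IMQ ears, and was the single member whose groups did not overlap (0.20 ± 0.10, adjusted p = 0.618), a gap that 2.26% of all genes had in that direction and 2.77% in the other. Psmb8 differed by 0.04 (95% interval -0.23 to 0.30), Psmb9 by 0.02 (-0.39 to 0.43) and Psmb10 by 0.08 (-0.30 to 0.45).

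Across the 4 groups the mean of knockout vehicle ears was the lowest in 35 of 47 members (74.5%, against 26.3% of all genes). The mean of knockout IMQ ears was the highest in 35 members (74.5%, against 27.0% of all genes). Both held in 28 members, which is 59.6%, against 13.5% of all genes. Psmb10 was among the members that did not follow this order, since its lowest mean was that of wild-type vehicle ears (4.74 ± 0.27, SD, n = 4). The lowest Psmb8 mean was also that of wild-type vehicle ears (5.38 ± 0.23), close to 5.43 ± 0.15 in knockout vehicle ears. Psmb9 did follow the order, with 3.62 ± 0.48 in knockout vehicle ears and 3.74 ± 0.20 in knockout IMQ ears.

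Markers of tissue make-up differed between the same groups. For the counts with IMQ given here, 8.07% of all genes were called higher and 6.91% lower in knockout ears. In wild-type ears these shares were 1.95% and 1.69%. The mean of the 14 skeletal muscle markers was 7.16 ± 0.35 in knockout IMQ ears, 7.86 ± 0.40 in wild-type IMQ ears, 8.78 ± 0.42 in knockout vehicle ears and 7.87 ± 0.39 in wild-type vehicle ears (SD, n = 4 arrays each). All 14 fell with IMQ in knockout ears (median change -1.64), and 0 of 14 were called in wild-type ears. The 7 keratins and Sprr genes of stressed keratinocytes averaged 10.48 ± 0.07 in knockout IMQ ears, 10.21 ± 0.11 in wild-type IMQ ears, 7.72 ± 1.12 in knockout vehicle ears and 9.53 ± 0.28 in wild-type vehicle ears. All 7 rose in knockout ears and 1 in wild-type ears, and knockout vehicle array 4, which had the lowest member median at -0.28, was the lowest at 6.20. The 9 proliferation genes averaged 6.69 ± 0.11 in knockout IMQ ears, 6.41 ± 0.19 in wild-type IMQ ears, 5.80 ± 0.28 in knockout vehicle ears and 6.28 ± 0.05 in wild-type vehicle ears, and 8 of them rose in knockout ears and 0 in wild-type ears. Neutrophil markers rose in both genotypes, 7 of 10 in each. Of 9 monocyte and macrophage markers, 5 rose in knockout ears (median 0.88) and 4 in wild-type ears (median 0.94). Of 6 endothelial markers, 2 rose in knockout ears and 1 in wild-type ears. Of 6 fibroblast markers, 1 rose and 2 fell in knockout ears, and 2 rose and 1 fell in wild-type ears. Of the 8 general keratinocyte markers, 3 were called higher and 2 lower in knockout ears, and 0 higher and 1 lower in wild-type ears. Of 9 cartilage markers, 6 fell in knockout ears (median -1.02) and 2 in wild-type ears, and their mean was 4.50 ± 0.17 in knockout IMQ ears, 4.75 ± 0.09 in wild-type IMQ ears, 5.44 ± 0.04 in knockout vehicle ears and 5.12 ± 0.08 in wild-type vehicle ears. Of 9 dendritic and Langerhans cell markers, 4 fell in knockout ears and 0 were called in wild-type ears. The 4 were the MHC class II pathway genes Cd74 (-0.98), H2-Ab1 (-0.99), H2-Aa (-0.94) and H2-Eb1 (-0.70). Cd207 (-0.37), Flt3 (-0.42), Itgax (-0.04), Zbtb46 (0.03) and Xcr1 (0.07) were not called in knockout ears. At an unadjusted limma p under 0.05, 3 of the 9 markers were lower in wild-type ears, as were 7.18% of all genes. Of 11 adipocyte markers, 2 fell in knockout ears (median -0.29) and 2 rose in wild-type ears (median 0.61). Their median difference of the effects was -1.19 with 1 marker called lower, as were 0.721% of all genes. With the muscle and adipocyte marker means as covariates, 0 of 47 members and 0.32% of all genes were called higher in knockout ears, and the member median was 0.16. Beyond that fit, the part of these markers in the result was not tested.

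**Figure D4:**
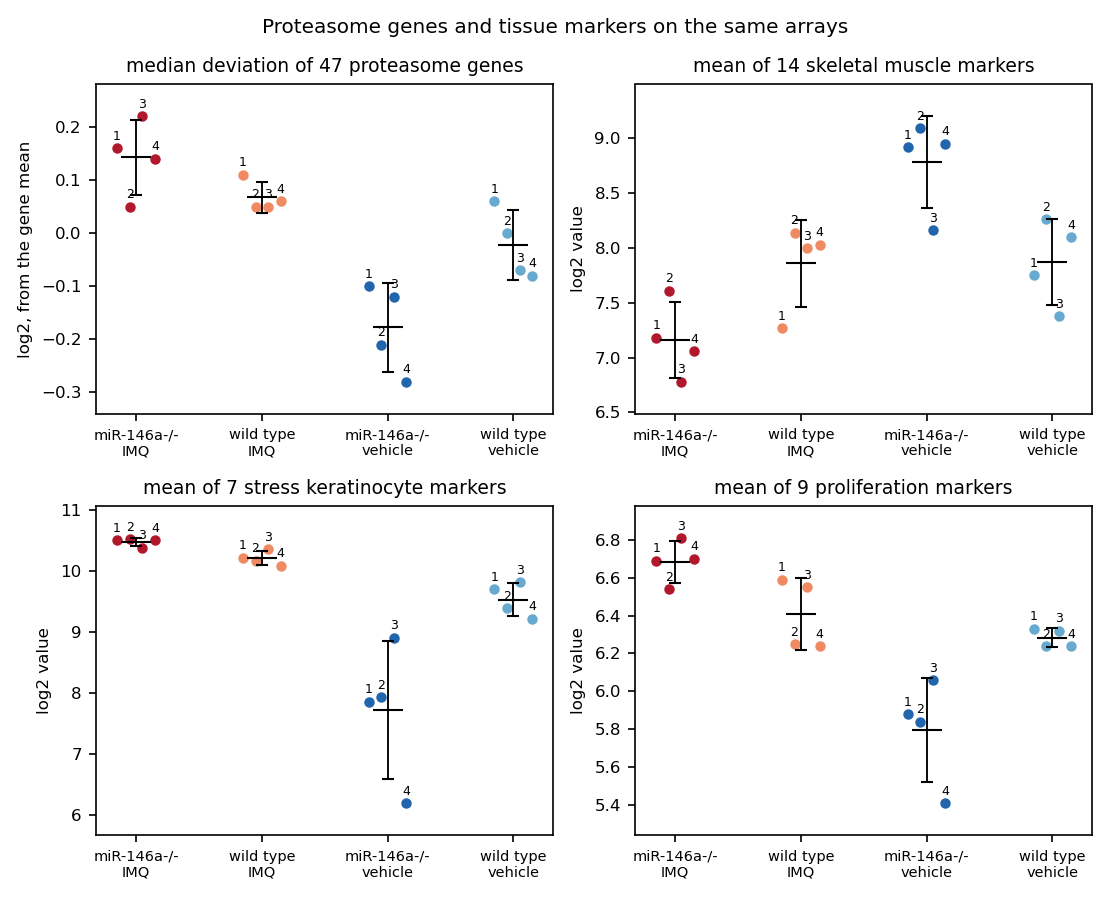
Per-array median deviation of the 47 proteasome genes from their own means, and mean log2 signal of the muscle, stressed keratinocyte and proliferation markers (y axes), by group, with points numbered by array and bars giving the mean ± SD (n = 4). Knockout vehicle arrays are lowest for the proteasome genes (-0.28 to -0.10) and highest on average for muscle (8.78).

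Further genes of the ubiquitin pathway were examined. Of 19 partner genes measured, 6 (31.6%, against 8.07% of all genes) rose with IMQ in knockout ears. In wild-type ears 0 were called by limma in either direction, against 1.95% of all genes called higher and 1.69% lower. At an unadjusted limma p under 0.05, 1 was higher and 1 lower, as were 7.15% and 7.18% of all genes. The 6 were the cap deubiquitinase Uchl5 (0.83 ± 0.15, adjusted p = 0.000884), the core maturation factor Pomp (0.54, adjusted p = 0.0432), the shuttle factors Rad23b (0.50) and Ubqln1 (0.44), the ubiquitin-activating enzyme Uba1 (0.37) and the unfolding ATPase Vcp (0.37). The list's median was 0.10 in knockout ears and 0.04 in wild-type ears, against -0.02 for all genes in each. Nfe2l1, which encodes a transcription factor of proteasome genes, changed by -0.17 in knockout ears and -0.08 in wild-type ears, and Ddi2, the protease that activates it, by -0.09 and -0.30 in those ears, none of them called.

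Antigen presentation genes were examined next. In knockout ears 4 of 12 MHC class I processing genes rose, namely Calr (0.88), Erap1 (0.69), Pdia3 (0.51) and Canx (0.43), of which Calr, Pdia3 and Canx are chaperones of the endoplasmic reticulum and Erap1 trims peptides there. The other 8 were not called, 6 of the 12 had a change below 0 (down to -0.43 in H2-T23, adjusted p = 0.179), and the list's median was -0.04, while 8.07% of all genes were called higher. In wild-type ears all 12 changes were above 0, with a median of 0.18. There B2m, the light chain of MHC class I, rose by 0.46 (adjusted p = 0.0419), the single call of the list, with 1.95% of all genes called higher. The peptide transporter gene Tap1 changed by -0.17 in knockout ears and 0.20 in wild-type ears, neither called.

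Of 19 interferon response genes, Irf7 (0.78) and Isg15 (0.60) rose and Ciita fell by 0.61 in knockout ears, and Iigp1 rose by 0.84 in wild-type ears. The 2 genes that rose in knockout ears are 10.5% of the list, near the 8.07% of all genes. The 1 that rose in wild-type ears is 5.26%, against 1.95% of all genes. The list's median was 0.26 in knockout ears and 0.14 in wild-type ears. Ifng, the gene for interferon gamma, averaged 2.70 over all arrays, below the array medians, and changed by 0.06 in knockout ears and 0.14 in wild-type ears. The median of all genes was -0.02 in each. Of 10 chaperone and proteotoxic stress genes, Hsp90aa1 (0.76), Hmox1 (0.71), Hspa8 (0.51) and Hsph1 (0.51) rose and Hspb1 fell by 0.62 in knockout ears. Hspa1a (-0.26), Hspa1b (0.25), Dnajb1 (0.19), Bag3 (0.06) and Sqstm1 (-0.04) were not called there. Those that rose are 40% of the list, and 8.07% of all genes were called higher and 6.91% lower. In wild-type ears Hmox1 (0.62) and Hsp90aa1 (0.43) rose, which is 20% of the list, against 1.95% of all genes. The medians of the 10 genes were 0.22 in knockout ears and 0.15 in wild-type ears.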

How the data were processed

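The authors deposited log2 signals for 41345 transcript clusters of 16 arrays, with 2 decimals and values from 1.25 to 13.29. Per the submitters' processing notes they were made with Affymetrix Expression Console. Neither the summarisation method nor the software version or genome build is given in the sources used here. Since the array medians lay between 3.21 and 3.28, no further normalization was applied. The deposited annotation gave a symbol to 32471 clusters, and for the 909 genes with several clusters the one with the highest mean was kept, which left 30943 genes.

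A model of 4 group means was fitted to all genes with limma's lmFit and eBayes (limma 3.58.1, R 4.3.3), which had 12 degrees of freedom of its own and 6.18 from the prior. Of it 5 contrasts were taken: IMQ against vehicle in each genotype, knockout against wild type under each treatment, and the difference of the IMQ effects. P-values were Benjamini-Hochberg adjusted over all genes within a contrast, and no filter on dim genes was used. The number of arrays limits the precision. The script was tested on simulated data. All 47 members were found in the RefSeq table.

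The members, marker lists and pathway lists were chosen with earlier results of these data known. Psmb8, Psmb9 and Psmb10 are given array by array, as are, in each contrast, the 3 called members with the largest rise or, with none called, the 2 with the lowest p; Psmb5 was added after its values were seen. Alternatives were a filter, quantile normalization, median centring, trend and robust variance, array weights, a replicate block, both other treatments of several clusters, only the compared groups, marker covariates, and leaving out each array. The labels do not say whether replicate numbers pair the arrays.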

Additional observations from a re-analysis of the deposited data

Results flagged for a closer look

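In 13 of 188 sets of 4 arrays (47 genes in 4 groups), 1 array stood apart from the other 3 by Dixon's test at the 95% level, of which chance gives about 1 in 20. None of these arrays was left out.

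Among alpha subunits, Psma4 read 7.63 on knockout vehicle array 3, with the other 3 arrays at 7.27 to 7.29, and 7.59 on wild-type vehicle array 2, with the others at 7.35 to 7.39. Psma7 read 7.90 on wild-type IMQ array 2, with the others at 8.07 to 8.10. Of the beta subunits, Psmb7 read 7.83 on knockout IMQ array 2 (others 7.72 to 7.73) and 7.62 on wild-type vehicle array 3 (others at 7.58).

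In the cap, Psmd1 read 7.09 on knockout vehicle array 4 (others 7.30 to 7.34), and Psmd2 read 8.22 on wild-type vehicle array 3 (others 8.39 to 8.42). Psmd4 read 7.39 on wild-type IMQ array 3 (others 7.10 to 7.13), and Psmd11 read 8.36 on wild-type vehicle array 1 (others 8.09 to 8.12). Psmd14 read 6.37 on wild-type IMQ array 3 (others 6.69 to 6.75).

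Psme4, the activator PA200, read 7.55 on wild-type IMQ array 3 (others 7.35 to 7.37). Of the core assembly chaperones, Psmg2 read 5.62 on wild-type vehicle array 3 (others 5.17 to 5.24) and Psmg3 read 4.36 on knockout vehicle array 1 (others 3.88 to 3.94).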

How the results depend on the processing

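In knockout ears the count of members called higher was 18. It was 11 with only the compared groups (6.1% of all genes called higher) and 12 with quantile normalization (7.37%, member median 0.21). It was 23 of 44 with a filter on dim genes (17.1% of all genes, against 8.07% without it). Trend and robust variance gave 22 (8.56%) and median centring 20 (9.28%). With muscle and adipocyte markers as covariates it was 0 (0.32% of all genes), and the member median was 0.16. In that fit the 18 changes ran from -0.01 in Psmd7 to 0.66 in Psme3, against 0.31 to 0.71 without covariates. Their standard errors were 0.21 to 0.35, against 0.10 to 0.16 without covariates. In wild-type ears the count of 1 (1.95% of all genes) became 0 with quantile normalization (1.72%) and with covariates (0.375%). It was 2 with the filter (4.95%) or median centring (2.49%). Psmb9 there read 0.01 and 0.03 with quantile normalization and median centring, and Psmb10 passed at 0.62 with the filter and 0.66 with median centring. With covariates the medians were 0.00 between genotypes in IMQ ears, -0.07 in vehicle ears and 0.06 for the difference of effects, and Psmb8 in vehicle ears read -0.11. The causes were not tested. The fit on compared groups alone cannot give the difference of effects.

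As far as the labels say, arrays of the same replicate number share only that number. Their correlations, after the group means were taken off, were -0.08 to 0.11. In vehicle ears every knockout array correlated best with the wild-type array of its own number, a hint only. The replicate block gave 16 members called higher in knockout ears (7.83% of all genes), without Psma3 and Psmd7, and 0 in wild-type ears (1.84%).

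Without each array in turn, counts called higher ran from 12 to 19 in knockout ears and 0 to 2 in wild-type ears. For the difference they ran from 0 to 1, and between genotypes they stayed 0. Of all genes, 6.3% to 7.96% were called higher in knockout ears, 1.24% to 2.15% in wild-type ears and 0.181% to 1.1% for the difference. Member medians ran from 0.25 to 0.33 in knockout ears and 0.04 to 0.11 in wild-type ears. Between genotypes they were 0.04 to 0.09 with IMQ and -0.19 to -0.11 with vehicle, and for the difference 0.19 to 0.26. Psmb8 ran from 0.16 to 0.28 in knockout ears, 0.11 to 0.29 in wild-type ears, -0.01 to 0.09 between genotypes with IMQ, -0.07 to 0.10 with vehicle and -0.07 to 0.11 for the difference. Psmb9 ran from -0.03 to 0.29, -0.12 to 0.10, -0.09 to 0.14, -0.28 to 0.04 and -0.02 to 0.30, and Psmb10 from 0.19 to 0.42, 0.51 to 0.76, -0.07 to 0.19, 0.27 to 0.53 and -0.48 to -0.20, in that order of comparisons.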
